A study of Arabidopsis thaliana with 6 samples.

Results

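The transcripts described here moved oppositely in a line labelled as an octopus mutant and a line overexpressing OCTOPUS. Each stood on one side of wild type in the octopus mutant and on the other side in the overexpressor. They are 81 of the 12363 probe sets of the array with a mean of at least 4 on the log2 scale over the 6 arrays. A probe set is the group of short probes that reads 1 transcript. The members were chosen by their measured values. The mean of each line differs from the wild-type mean by at least 0.5 log2 units, in opposite directions, and both wild-type arrays lie strictly between the arrays of the lines. The order of the groups and the sizes of both changes are therefore a consequence of the choice, and they are given as a description without a test. The third difference, of overexpressor against mutant, follows from the same choice.

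RNA from whole Arabidopsis thaliana plants was read on Affymetrix ATH1 arrays after amplification and biotin labelling. There are 2 arrays of wild type, accession Wassilewskija, 2 of the octopus mutant, named DYG25 in the labels, and 2 of the overexpressor, named 35SDYG25. Per the labels the mutant has defects in forming phloem and in laying out the vasculature, and neither its allele nor the accession of either line is stated. The name of the overexpressor contains that of the 35S promoter, a viral promoter active in most plant cells. All plants grew untreated on MS/2 medium at 20 °C, and neither their age nor whether the arrays of a group came from separate cultures is given in the labels, so errors and p-values measure the spread between these arrays alone, and that spread may be technical.

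OCTOPUS (OPS) is a plasma membrane protein that sits at one end of the young cells of the phloem, the tissue that carries sugars, and promotes their differentiation. It is known to bind BIN2, a kinase that holds back brassinosteroid signalling, and to keep it at the membrane. Setting a mutant and an overexpressor on either side of wild type asks which transcripts are ordered with the amount of OPS. In whole plants, fewer cells of a type and less RNA per cell cannot be told apart.

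The array medians lay between 4.40 and 4.49, and the arrays of a group correlated at 0.984 to 0.989 across the tested probe sets. The OPS probe set stood 7.11 log2 units above wild type in the overexpressor (SE 0.171, limma adjusted p = 7.78e-06) and 0.07 below it in the mutant, where wild type itself was near the floor at 2.56, so it checks the label of the overexpressor and not that of the mutant. The control probe set of 25S ribosomal RNA read 8.03 and 11.2 in the mutant arrays against 5.86 to 6.61 in the other 4. For the GAPDH control the 3' probes read above the 5' probes by 1.92 and 1.72 in the overexpressor, 1.80 and 1.39 in the mutant, and 1.42 and 1.12 in wild type. The part of these differences in the members' values was not tested.

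By group means alone, 113 tested probe sets differed from wild type by at least 0.5 in opposite directions, and in 84 of them both wild-type arrays lay between the lines. Of these 84, 3 are left out by name, the lipid transfer family genes AT5G55450 and AT5G01870 and BCAT4 of glucosinolate synthesis. The cysteine protease gene AT2G27420 and the plastid-encoded genes are also left out, and AT2G27420 did not meet the rule, with wild type at 4.04 and 3.38 and an overexpressor array at 3.42. The 81 members divide almost evenly. In 41 the overexpressor was highest and the mutant lowest, and in 40 the mutant was highest and the overexpressor lowest. Of the 81, 40 name 1 gene, 16 of them highest in the overexpressor and 24 highest in the mutant, and the other 41 are not listed in the annotation used here and are not named. The 2 changes of a member share the wild-type arrays, so they are not independent measurements.

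**Figure D1:**
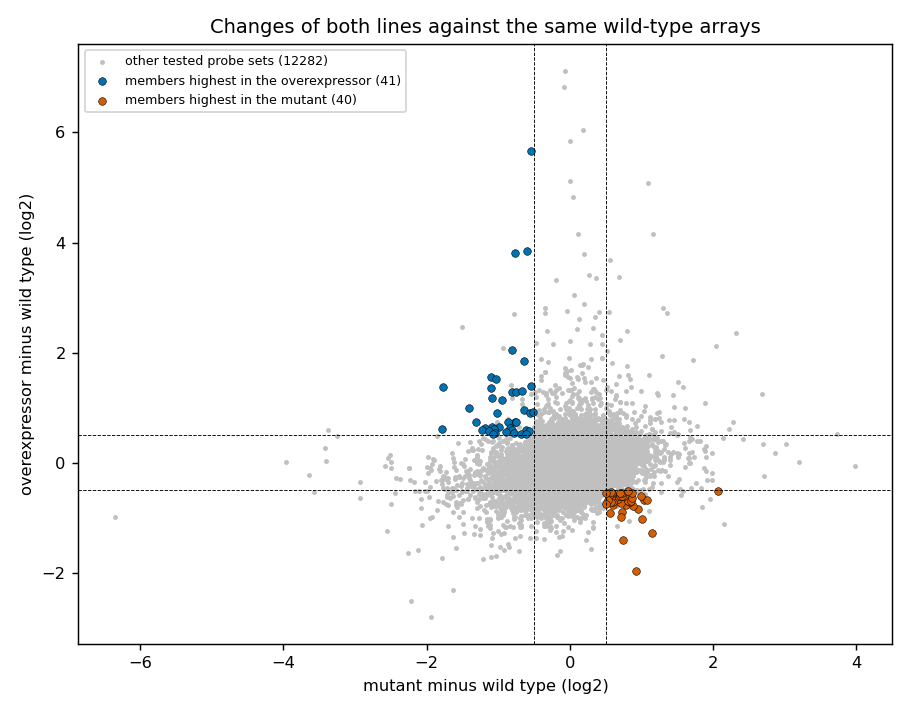
Change of each of the 12363 tested probe sets in the mutant (horizontal) and in the overexpressor (vertical) against the same wild-type mean, on the log2 scale, with the members in colour and dashed lines at 0.5. The 41 members highest in the overexpressor lie at the upper left and reach 5.66, and the 40 highest in the mutant lie at the lower right, mostly close to the dashed lines.

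The members highest in the overexpressor had the larger changes. Their median was 0.75 above wild type in the overexpressor and 0.83 below it in the mutant, a median span of 1.81 between the lines. For the members highest in the mutant the median was 0.73 above wild type in the mutant and 0.67 below it in the overexpressor, a span of 1.40. A change of at least 1 log2 unit, 2-fold, in both lines was met by 8 members, 6 of the first kind and 2 of the second. In both kinds the mutant had the larger change somewhat more often. The change was larger in the mutant for 23 of the 41 and 23 of the 40, larger in the overexpressor for 17 and 16, and equal in 1 of each. This difference was not tested.

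In level the members resembled the tested probe sets as a whole. Their mean over the 6 arrays had a median of 6.19, against 6.37 over all tested, and ranged from 4.06 to 11.0. Their replicate spread was above that of the other probe sets, with a median SD over 2 arrays of 0.15 for wild type, 0.17 for the mutant and 0.24 for the overexpressor, against 0.11, 0.10 and 0.13 over all tested. Probe sets whose ID ends in _s_at or _x_at, which can read several similar genes, made up 2 of the 81 (2.47%, against 3.82% of all tested). The 40 named members lie on all 5 chromosomes, with 13 on chromosome 1, 6 on chromosome 2, 7 on chromosome 3, 9 on chromosome 4 and 5 on chromosome 5. Of the tested probe sets that name 1 gene, these chromosomes hold 25.6%, 14.8%, 20.4%, 14.3% and 23.6% in the same order. Among the named members 1 pair lay within 20 genes of each other in the TAIR10.1 gene order, MSRB6 and ALN, 17 steps apart and both highest in the mutant.

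The arrays of the overexpressor contributed unequally to the 2 kinds of member. In the 40 members highest in the mutant, overexpressor array 2 was below array 1 in 37, against 54.9% of all tested probe sets. Array 2 lay at least 0.5 below the wild-type mean in all 40, and array 1 in 14. The median distance from wild type was -0.42 on array 1 and -0.90 on array 2. The 41 members highest in the overexpressor showed a smaller gap: array 1 differed from the wild-type mean by at least 0.5 in 34 and array 2 in 38, with medians of 0.78 and 0.86. In the mutant, array 2 was the farther from wild type in 29 of the 40 members highest there (medians 0.68 and 0.86), and in the 41 lowest there array 2 was below array 1 in 21 and above it in 18.

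**Figure D2:**
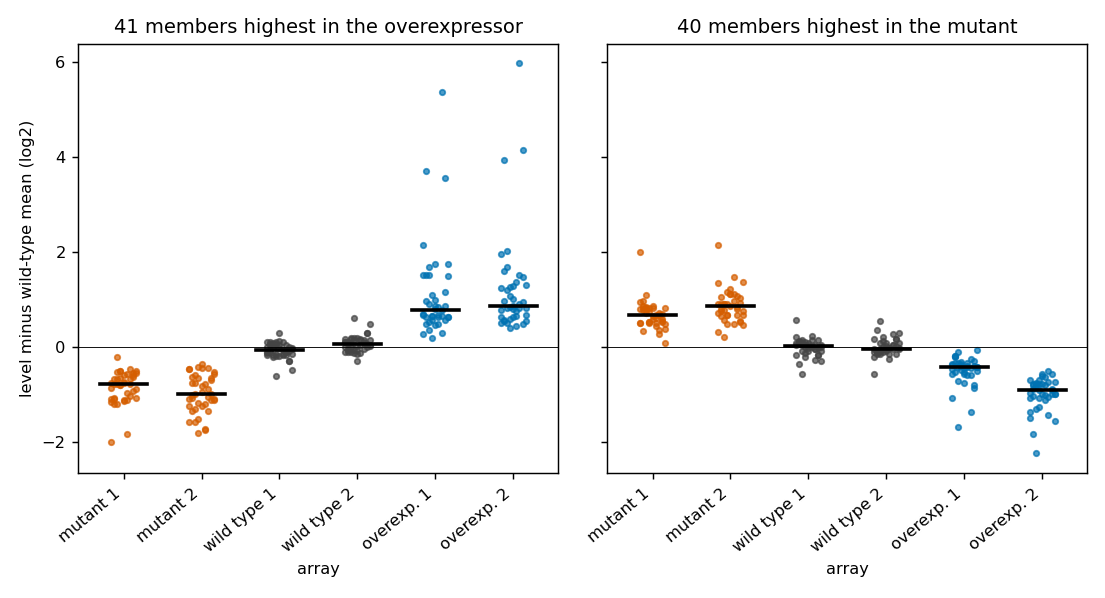
Level of every member on each of the 6 arrays minus its wild-type mean (log2), with 1 point per member and a black bar at the median. On the right the points of overexpressor array 2 (median -0.90) lie lower than those of array 1 (median -0.42), and on the left both overexpressor arrays have similar medians, 0.78 and 0.86.

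Membership depended on single arrays to match. Without overexpressor array 2, 48 of the 81 still met the rule, 34 of those highest in the overexpressor and 14 of those highest in the mutant. Without wild-type array 1, 51 did (29 and 22), and without wild-type array 2, 65 did (32 and 33). Without mutant array 1 or mutant array 2, 70 did in each case, and without overexpressor array 1, 78 did. Leaving out an array also admits other probe sets, so that 164 met the rule without overexpressor array 1, 104 of them highest in the mutant, and 123 without mutant array 1. In all 6 of these settings 23 members remained, 18 highest in the overexpressor and 5 highest in the mutant. The minimum mean level was held over all 6 arrays, so no member could fail it when an array was left out. AT1G25400, AT3G60420, 257382_at and 264375_at are among the 23 and reached that minimum only through the overexpressor. AT4G08780, also among the 23, reached it only through the mutant. For all of these members the settings test the changes and the order of the groups, and not the level.

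**Figure D3:**
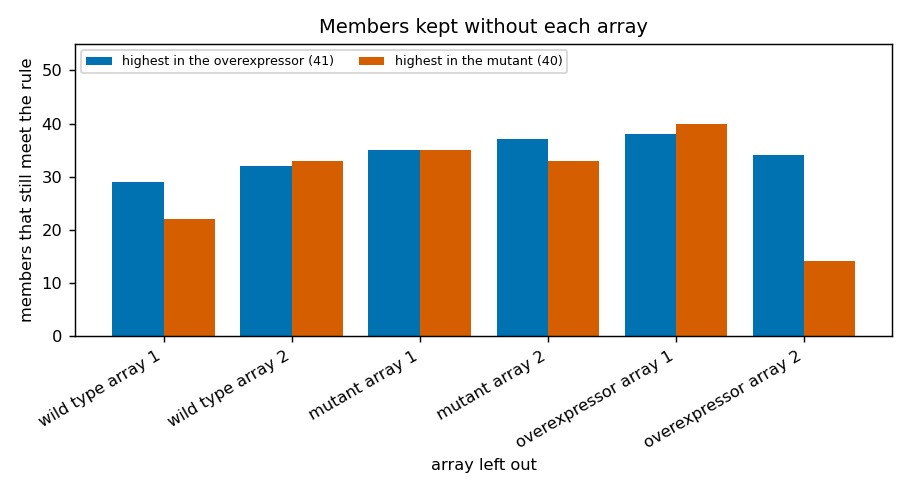
Number of members that still met the rule when each array was left out, of the 41 highest in the overexpressor (blue) and the 40 highest in the mutant (orange). The minimum mean level was held over all arrays. The lowest bar is 14, for members highest in the mutant without overexpressor array 2.

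In the fit across all tested probe sets (limma, Benjamini-Hochberg adjusted p below 0.05), 22 of the 41 members highest in the overexpressor passed as lower in the mutant than in wild type, where 7.2% of all tested probe sets did, and 16 passed as higher in the overexpressor, where 1.49% did. Of the 40 members highest in the mutant, 12 passed as higher there (6.84% of all tested) and 3 as lower in the overexpressor (1.04%). All 81 passed between overexpressor and mutant, 41 higher (8.8% of all tested) and 40 lower (9.55%). Since the rule chose the members on these same differences, the counts describe the members and are not evidence for them. Both changes against wild type passed in 11 members, 9 of the first kind and 2 of the second, and neither passed in 39, 12 and 27. The shares of all tested probe sets that passed in both or in neither were not taken, so these counts have no background to be read against. The counts moved with single arrays, and the share of all tested probe sets that passed moved in the same direction in each of these fits. A shared direction does not show whether the members shifted more or less than the other probe sets, and this was not tested. The 34 calls in the mutant (14% of all tested passed there in either direction) became 15 without either wild-type array, 6 without mutant array 1 and 7 without mutant array 2. The 19 calls in the overexpressor (2.53% of all tested) became 7 and 9 without wild-type array 1 and 2, 8 without either mutant array and 8 without overexpressor array 2. They became 21 when overexpressor array 1 was left out, where the 16 calls among members highest in the overexpressor became 13 and the 3 among members highest in the mutant became 8. The latter count was 2 without wild-type array 1, and in the other 4 fits no member highest in the mutant passed in the overexpressor. The 81 calls between the lines (18.4% of all tested) became 52 without mutant array 1 and 43 without mutant array 2.

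Among the 40 named members there were 16 calls against wild type for the mutant (14% of all tested probe sets passed) and 7 for the overexpressor (2.53%). Most of these calls were lost without at least 1 array. In the mutant the calls of AT1G21670, AT2G37540 and AT1G73600 held without each of the 6 arrays. Those of AT1G21670 and AT2G37540 came close to the threshold of 0.05 in at least 1 of these fits. The other calls in the mutant did not hold in every fit. AT1G52200 and AT1G13990 lost theirs without either mutant array and AT1G30990 without these or wild-type array 1. AT3G60420, AT3G46600, AT4G17140, AT4G02850, MSRB6, AT1G68570 and AT3G15357 lost theirs in each of the 4 fits lacking a mutant or wild-type array, and AT2G25730 and AT1G22890 without any of the 6. CP1 kept its call only without wild-type array 2 (highest adjusted p = 0.202). In the overexpressor the call of AT3G60420 held without each array. That of AT1G05575 was lost without wild-type array 1 (limma adjusted p = 0.0544) and that of AT1G30990 in the same 4 fits. CP1 passed without wild-type array 1 and without overexpressor array 1 and not in the other 4 fits, AT1G29090 kept its call only without wild-type array 1, and AT1G21670 and AT3G26470 lost theirs without any of the 6. Each of these fits holds fewer arrays, and the statements on single genes that follow refer to all 6.

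The 16 named members highest in the overexpressor are described by protein family, an order chosen after the members were known. AT1G30990 belongs to the family of Bet v 1-like lipid-binding proteins, and it had the largest smaller change of any named gene of this kind. It stood at 5.33 and 5.14 in wild type, 4.03 and 4.24 in the mutant and 6.74 and 6.44 in the overexpressor. The mutant was 1.10 log2 units lower than wild type and the overexpressor 1.36 higher (SE 0.174 each), so that the lines differed 5.48-fold. Both changes passed in the fit, and the gene met the rule without each of the 6 arrays.

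AT2G15220 encodes a member of the plant basic secretory protein family, whose members have been linked to defence. Its levels were 5.01 and 5.10 in wild type, 3.99 and 4.50 in the mutant and 6.81 and 5.87 in the overexpressor. The groups stand apart, as the rule requires, although the overexpressor arrays differ by 0.94. Of its changes of -0.81 and 1.28 (SE 0.318) neither passed. Its probe set is of the _s_at kind and may also read similar genes. AT3G26470 encodes a protein with an RPW8 domain, a domain known from powdery mildew resistance. It read 5.09 and 4.82 in wild type, 4.37 and 4.51 in the mutant and 5.95 and 5.81 in the overexpressor. The overexpressor was 0.92 above wild type (SE 0.164), which passed, and the mutant was 0.52 below it, close to the threshold of the rule.

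AT3G60420, of the phosphoglycerate mutase family, showed the widest span of the named members. It read 3.22 and 3.08 in wild type, 2.37 and 2.39 in the mutant and 6.85 and 7.08 in the overexpressor. The overexpressor was 3.81 log2 units above wild type (SE 0.165), or 14.1-fold, and the mutant 0.77 below it, and both passed. Wild type and mutant were close to the floor of the arrays, whose lower quartiles lay between 2.54 and 2.70, so both folds are limited by background. The second probe set of this gene lay between 2.42 and 2.54 on all 6 arrays and showed no difference of the kind.

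AT1G52200 encodes a small cysteine-rich membrane protein of the PLAC8 family, to which the plant cadmium resistance proteins belong. It stood at 9.26 and 9.85 in wild type, 8.63 and 8.45 in the mutant and 10.4 and 10.5 in the overexpressor. The mutant was 1.02 lower (SE 0.189), which passed, and the overexpressor 0.90 higher, which did not. AT1G21670, which encodes a protein with WD40-like repeats, had arrays close together in every group. It read 7.89 and 7.94 in wild type, 7.04 and 6.80 in the mutant and 8.54 and 8.60 in the overexpressor, with changes of -0.99 and 0.66 (SE 0.124) that both passed. Its next neighbour in the gene order, AT1G21680, is among the probe sets just outside the rule, described below.

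AT3G46600 encodes a transcription factor of the GRAS family. It read 5.98 and 6.17 in wild type, 5.29 and 4.73 in the mutant and 6.38 and 6.99 in the overexpressor. The mutant was 1.06 lower than wild type (SE 0.260), which passed, while the overexpressor was 0.61 higher and did not pass. AT2G37540, of the short-chain dehydrogenase family, read 7.30 and 7.21 in wild type, 6.18 on both mutant arrays and 7.75 and 7.82 in the overexpressor. The mutant was 1.08 lower (SE 0.116), which passed, and the overexpressor 0.53 higher, which did not.

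AT4G17140, which encodes a large protein with a pleckstrin homology domain, read 7.08 and 7.07 in wild type, 6.31 and 6.48 in the mutant and 7.61 and 7.59 in the overexpressor. The mutant change of -0.68 (SE 0.121) passed, and the change of 0.52 in the overexpressor did not. Its other probe sets did not show this order. One read 5.35 and 5.74 in wild type, 4.45 and 4.51 in the mutant and 5.58 and 4.79 in the overexpressor, where the mutant was lower and the overexpressor overlapped wild type, and the third lay at the floor, between 2.12 and 2.16. AT2G25730, which encodes a zinc finger protein, read 6.91 and 6.68 in wild type, 6.30 and 6.14 in the mutant and 7.36 and 7.38 in the overexpressor, changes of -0.57 and 0.57 (SE 0.138) of which that in the mutant passed.

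The other 6 named members highest in the overexpressor encode proteins for which no role is given here. AT1G05575 read 4.64 on both wild-type arrays, 4.12 and 3.88 in the mutant and 6.32 and 6.67 in the overexpressor, where it was 1.86 above wild type (SE 0.179) and passed. AT1G13990 read 5.79 and 5.84 in wild type, 4.68 and 4.57 in the mutant and 6.28 and 6.61 in the overexpressor. In that gene the mutant change of -1.19 passed and the overexpressor change of 0.63 did not. AT1G22890 read 5.24 and 5.35, 4.73 and 4.09, and 5.97 and 5.73 in the same order of groups, and it too passed in the mutant only, with a change of -0.89.

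AT1G25400 read 4.22 and 4.54 in wild type, 3.36 and 3.51 in the mutant and 5.16 and 5.90 in the overexpressor, and its changes of -0.94 and 1.15 (SE 0.263) did not pass. It reached the minimum mean of 4 only through the overexpressor. AT3G10020 read 8.77 and 9.17, 8.29 and 7.39, and 9.32 and 9.79 in the same order, with changes of -1.13 and 0.59 that did not pass. In AT1G10140 wild type nearly touched both lines, with 5.84 and 6.82 in wild type against 5.82 and 5.23 in the mutant and 6.97 and 6.88 in the overexpressor. Its changes of -0.81 and 0.59 (SE 0.331) did not pass.

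**Figure D4:**
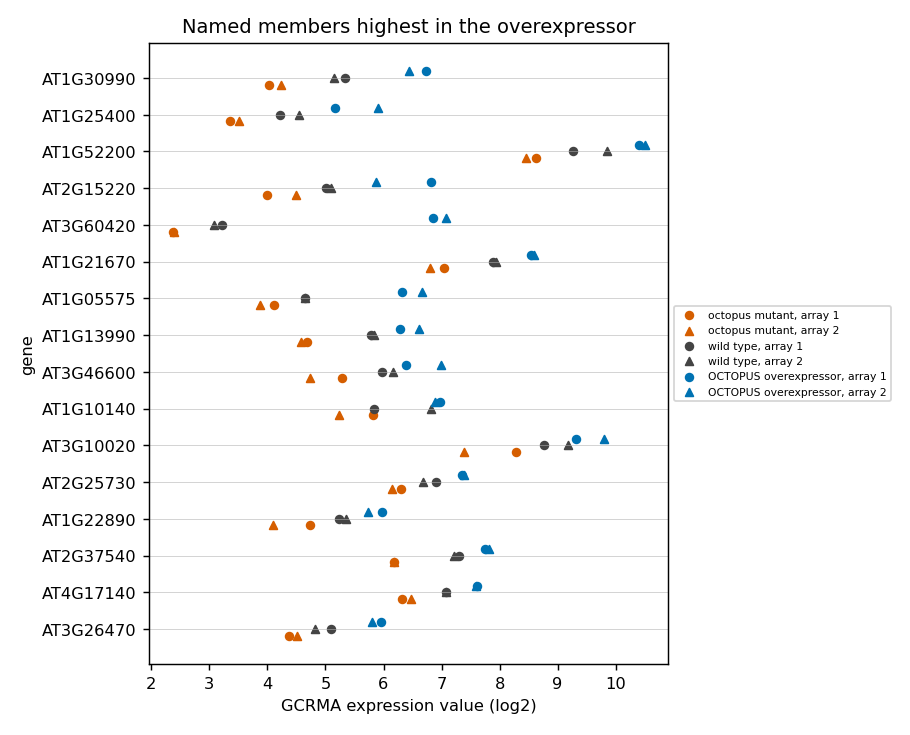
GCRMA expression value (log2) on each array of the 16 named members highest in the overexpressor, with circles for array 1 and triangles for array 2. In every gene the mutant arrays (orange) lie left of wild type (grey) and the overexpressor arrays (blue) right of it, and AT3G60420 has the widest span, from 2.37 to 7.08.

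Of the 25 members of this kind without a gene name, changes in the overexpressor ranged from 0.53 to 5.66 and in the mutant from -0.54 to -1.79. The largest, 251705_at, read 3.33 and 3.23 in wild type, 2.62 and 2.85 in the mutant and 8.64 and 9.24 in the overexpressor, and 257382_at read 2.98 on both wild-type arrays, 2.43 and 2.34 in the mutant and 6.53 and 7.12 in the overexpressor. As with AT3G60420, wild type and mutant were close to the floor, so the folds of both are limited by background, and all 3 reached the minimum mean of 4 only through the overexpressor. The probe set with the largest smaller change in the whole set, 256243_at, is among them. It read 5.73 and 6.06 in wild type, 3.91 and 4.33 in the mutant and 7.41 and 7.14 in the overexpressor, so that it was 1.77 log2 units lower in the mutant and 1.38 higher in the overexpressor (SE 0.205), and both passed. Next to it, 263046_at read 7.57 and 7.71 in wild type, 6.45 and 6.63 in the mutant and 9.15 and 9.23 in the overexpressor, and both of its changes passed as well.

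The 24 named members highest in the mutant are described by protein family in the same way. AT4G08780, which encodes a class III peroxidase of the secreted plant family, had the largest smaller change. It read 5.01 and 3.86 in wild type, 5.38 and 5.79 in the mutant and 3.37 and 2.94 in the overexpressor. The wild-type arrays differed by 1.15 units, as much as the mutant stood above their mean, and the changes of 1.15 and -1.28 (SE 0.376) did not pass. The overexpressor was close to the floor, and the gene reached the minimum mean of 4 only through the mutant. With that mean held over all 6 arrays, it met the rule without each array, as AT4G02850 did and no other named member highest in the mutant.

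EXPB1, a beta-expansin that loosens cell walls, read 5.28 and 5.46 in wild type, 6.08 and 6.28 in the mutant and 5.26 and 4.08 in the overexpressor. Overexpressor array 1 lay 0.02 below the nearer wild-type array, and the change of -0.70 (SE 0.350) in the overexpressor rested on array 2. THI2.2, a thionin, one of the small antimicrobial peptides, read 6.08 and 6.80 in wild type, 7.21 and 7.34 in the mutant and 5.91 and 5.55 in the overexpressor, with changes of 0.83 and -0.71 (SE 0.249). Neither gene passed in either line.

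AT4G18970, of the GDSL lipase family, read 8.02 and 8.12 in wild type, 8.42 and 8.91 in the mutant and 7.64 and 7.33 in the overexpressor, with changes of 0.59 and -0.59 (SE 0.187). AT5G23830, which encodes a protein with an MD-2-related lipid recognition domain, read 6.36 and 6.41, 6.98 and 6.94, and 6.09 and 5.39 in the same order of groups. Its mutant arrays agreed closely, its overexpressor arrays did not, and neither its changes nor those of AT4G18970 passed.

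The cysteine protease genes known among the 40 named members, AT1G29090 and CP1, were both highest in the mutant. AT1G29090, of the papain-like family, read 6.51 and 7.62 in wild type, 8.15 and 7.84 in the mutant and 5.38 and 4.83 in the overexpressor. The overexpressor was 1.96 log2 units below wild type (SE 0.361), or 3.89-fold lower, which passed, and the mutant was 0.93 above it, which did not. CP1, also named RD21A-like protease, read 6.48 and 7.03 in wild type, 7.44 and 7.55 in the mutant and 5.40 and 5.32 in the overexpressor. Its changes of 0.74 and -1.40 (SE 0.192) both passed, as those of no other named member highest in the mutant did.

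Several members act in metabolism. AT1G73600, of the phosphoethanolamine N-methyltransferase family that makes phosphocholine for membranes, was the most unequal in its changes of the named members highest in the mutant. It read 8.47 and 8.28 in wild type, 10.4 and 10.5 in the mutant and 8.03 and 7.69 in the overexpressor. The mutant was 4.21-fold higher (2.08 log2 units, SE 0.146), which passed, and the overexpressor 0.52 lower, near the threshold of the rule. UGT78D1, a flavonol rhamnosyltransferase, read 6.39 and 5.91 in wild type, 6.82 and 7.63 in the mutant and 5.81 and 5.15 in the overexpressor, and its changes of 1.07 and -0.67 (SE 0.331) did not pass.

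AT5G15950, of the S-adenosylmethionine decarboxylase family in polyamine synthesis, read 6.91 and 6.89 in wild type, 6.98 and 8.26 in the mutant and 6.48 and 5.35 in the overexpressor. Mutant array 1 lay 0.07 above the higher wild-type array, so the separation of the mutant from wild type rested on array 2. The changes of 0.72 and -0.99 (SE 0.473) did not pass. AT4G02850, of the PhzF-like family of phenazine biosynthesis-type proteins, had a steadier pattern, with 4.75 and 4.91 in wild type, 5.66 and 6.06 in the mutant and 4.08 and 4.23 in the overexpressor. The change of 1.03 in the mutant (SE 0.185) passed and that of -0.67 in the overexpressor did not.

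ALN, allantoinase, breaks down purine-derived allantoin, and AT2G34190 belongs to the nucleobase-ascorbate transporter family. ALN read 6.93 and 7.19 in wild type, 7.57 and 7.55 in the mutant and 6.66 and 6.36 in the overexpressor. AT2G34190 read 4.55 and 4.45, 5.30 and 4.72, and 3.79 and 3.72 in the same order. Both lie at the edge of the rule, with changes in the mutant of 0.50 and 0.51, and none of their changes passed.

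Redox proteins are represented by MSRB6, a methionine sulfoxide reductase, and AT5G50100, of the DCC family of thiol-disulfide oxidoreductases. MSRB6 read 7.99 and 8.33 in wild type, 8.85 and 9.20 in the mutant and 7.77 and 7.29 in the overexpressor, and its mutant change of 0.86 (SE 0.208) passed. AT5G50100 read 5.22 and 5.01, 5.46 and 5.88, and 4.79 and 4.33 in the same order, and neither of its changes passed. It met the rule in only 2 of the 6 settings that left out an array.

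Among genes of RNA and protein function, AT4G30800, a ribosomal protein gene of the small subunit, read 7.67 and 7.55 in wild type, 8.48 and 8.26 in the mutant and 7.42 and 6.58 in the overexpressor. AT1G18900, which encodes a pentatricopeptide repeat protein, read 4.53 and 4.52, 5.05 and 5.19, and 4.21 and 3.75 in the same order. HWS (HAWAIIAN SKIRT), an F-box protein that limits organ growth, read 5.20 and 5.10 in wild type, 5.63 and 5.82 in the mutant and 5.09 and 4.16 in the overexpressor. In HWS overexpressor array 1 lay 0.01 below the nearer wild-type array. None of these 3 genes passed in either line.

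The remaining named members highest in the mutant are of mixed or unstated role. AT1G68570 (NPF3.1), a transporter of the NRT1/PTR family, read 5.13 and 4.97 in wild type, 5.65 and 5.92 in the mutant and 4.52 and 4.49 in the overexpressor. AT3G15357, with no role given here, read 5.16 and 5.06, 5.83 and 5.78, and 4.53 and 4.61 in the same order. Both passed in the mutant, with changes of 0.73 and 0.69, and not in the overexpressor, where they stood 0.55 and 0.54 lower. AT5G66590, of the CAP family that includes the pathogenesis-related PR-1 proteins, read 6.39 and 6.74 in wild type, 7.09 and 7.10 in the mutant and 5.76 and 6.01 in the overexpressor, and neither of its changes passed.

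AT4G12980, of an auxin-responsive family of membrane proteins, read 5.24 and 5.65 in wild type, 6.18 and 6.61 in the mutant and 5.05 and 4.18 in the overexpressor. AT2G14460 read 5.73 and 5.30, 6.03 and 6.43, and 5.13 and 4.45 in the same order, and AT3G50340 read 5.89 and 6.47, 7.00 and 6.64, and 5.68 and 5.45. Their arrays do not overlap between groups, which the rule requires of every member, and none of the changes of these 3 genes passed.

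**Figure D5:**
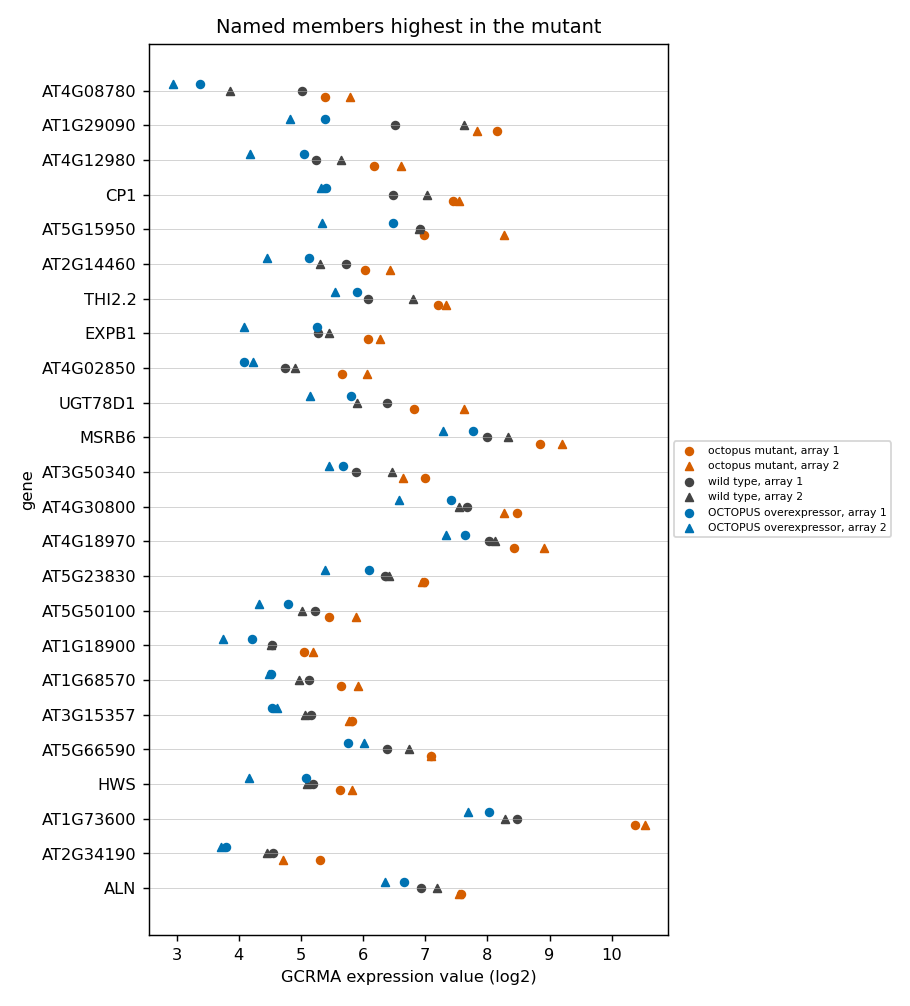
GCRMA expression value (log2) on each array of the 24 named members highest in the mutant, with circles for array 1 and triangles for array 2. The overexpressor (blue) lies left of wild type (grey) in every gene, and its array 1 almost touches wild type in EXPB1 (5.26 against 5.28) and HWS (5.09 against 5.10).

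The 16 unnamed members highest in the mutant differed by 0.55 to 1.01 in the mutant and by -0.51 to -1.01 in the overexpressor. The first of them by the smaller change, 250892_at, read 7.26 and 6.99 in wild type, 8.09 and 8.18 in the mutant and 6.94 and 5.29 in the overexpressor, so that both mutant arrays and overexpressor array 2 stood well apart from wild type and overexpressor array 1 did not. The second, 248619_at, read 7.36 and 7.41, 8.03 and 8.51, and 6.83 and 6.39 in the same order, with all groups well apart, and passed in the mutant.

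Close to the threshold of 0.5, the smaller change was 0.50 for ALN, 0.51 for AT2G34190 and 0.52 for both AT3G26470 and AT1G73600, the nearest named members inside it. The nearest named genes outside it, with wild type between the lines, were APS3, AT1G21680 and AT4G19160, each with a smaller change of 0.495. AT1G21680 read 9.36 and 8.99 in wild type, 7.32 and 7.33 in the mutant and 9.52 and 9.82 in the overexpressor, a larger difference in the mutant (-1.85) than that of its member neighbour AT1G21670 (-0.99).

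No gene of the 22 lists of pathways and cell type markers compared with the set was a member, though BCAT4, left out by name, is on one of them. Of the 222 listed genes, 49 had a probe set naming them and 36 were tested, so the lists cover little of what the array may hold. Of the 36, 5 passed as higher and 5 as lower in the mutant, and 2, OPS and WRKY53, as higher in the overexpressor (6.84%, 7.2% and 1.49% of all tested). WRKY53 did not pass without overexpressor array 2 or without either array of wild type. Of the brassinosteroid list, 3 of 12 genes were tested. EXPA8 rose in the mutant by 1.38 (limma adjusted p = 0.0165) and differed by -0.24 in the overexpressor, a call lost without either mutant array. EXPA4 differed by 0.21 and -1.01, and XTH18 by -0.55 and -0.52. None passed in the overexpressor. Of the phloem list, OPS and SWEET11 were tested: SWEET11, a sucrose exporter, fell by 0.78 in the mutant (limma adjusted p = 0.0102) and differed by -0.29 in the overexpressor, on the same side of wild type, and its call was lost without wild-type array 2 or mutant array 1. Of the 4 tested xylem and procambium genes none passed in either line, with PHV at 0.20 and -0.29, LHW at 0.06 and -0.10, CLE41 at 0.24 and 0.12 and GUT2 at -0.62 and -0.02 in the mutant and the overexpressor.

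Markers of other cell types were few. The root marker PYK10 differed by -0.04 in the mutant and -0.42 in the overexpressor, EXPA7 by -0.42 and -0.55 and EXPA18 by -0.19 and -0.04. FAMA of the stomatal lineage differed by -0.48 in each. None of these 4 passed in either line, each lay below wild type in both, and their part in the members' values was not tested.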

How the data were processed

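Each probe set has 1 deposited log2 value per array, an expression level that the authors computed with GCRMA, as the submitters' processing notes say. GCRMA corrects background by probe sequence, normalises arrays and summarises probes. The values themselves show the log2 scale. The sources used here state neither the version nor which arrays were normalised as 1 batch. No detection calls were used, and the number of arrays limits the precision.

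Of 22810 probe sets, 64 controls were left out and 12363 with a mean of at least 4 were tested. Names came from the platform annotation and the gene numbers of TAIR10.1, and those without a name were not named. Limma 3.58.1 in R 4.3.3 (lmFit, eBayes with trend, two-sided) fitted the 3 groups of 2 arrays together without covariates, with 3 residual and 3.98 prior degrees of freedom, and p-values were adjusted by Benjamini-Hochberg over all tested probe sets. The script was tested on simulated data. Standard errors are from this fit.

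The members, gene lists and tests were chosen with earlier results of these data known. The naming rule took the 15 members naming 1 gene with the largest smaller change in each direction, listed genes and those next to the threshold. Its part on protein families could not be applied, since the annotation holds no product names. AT5G50100, AT1G18900, AT1G68570, AT3G15357, AT5G66590, HWS, AT1G73600, 251705_at and 257382_at fell outside it and were named after their values were seen. Roles were grouped after the members were known. No sequences were used.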

Additional observations from a re-analysis of the deposited data

How the results depend on the processing

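Adding quantile normalisation gave 85 members, of which 79 were the same, and centring the arrays on their medians gave 83, of which 80 were. The set had 18 members at a minimum change of 0.75, 8 at a minimum of 1 and 42 at a mean level of at least 6. It ranged from 78 to 164 with single arrays left out and the minimum mean level held over all arrays. Members called in the mutant against wild type numbered 34, 16 without a filter, and 6 to 41 with single arrays left out. In the overexpressor against wild type they numbered 19, 10 at a mean level of at least 6, 8 in a fit of the 4 arrays compared, and 7 to 21 with single arrays left out. Between overexpressor and mutant they numbered 81, 42 at a mean level of at least 6, where only 42 members are left, and 43 to 79 with single arrays left out. The share of all fitted probe sets that passed in the mutant was 4.44% without a filter. In the overexpressor it was 2.66% at a mean level of at least 6 and 0.607% in the fit of 4 arrays. Between the lines it was 25.5% at a mean level of at least 6. With single arrays left out, this share moved in the same direction as the count of members in each fit. A group left with 1 array was assumed to vary like the others.

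With the replicate number as a block the counts of called members were 25, 13 and 76, where 9.43%, 0.954% and 12.8% of all tested probe sets passed. The labels number the arrays and do not say whether the numbers pair the samples, which was not tested. Deviations of same-numbered arrays correlated at -0.24 between wild type and mutant, 0.16 between wild type and overexpressor and -0.31 between mutant and overexpressor. With the mutant numbers exchanged, chosen after seeing the data, the block gave 57, 37 and 81. The shares of all tested probe sets rose as well, to 18.9%, 6.24% and 24%. With quantile normalisation added, 79 of the 80 changes of named members moved by less than the replicate spread, and with arrays centred on their medians all 80 did, without a change of direction. The cause of these shifts was not tested.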
